A study of Mus musculus with 5 samples.

Results

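The S-phase and mitosis genes are 38 genes that dividing cells transcribe while they copy and then separate their chromosomes, taken as the rows with these symbols among the 13711 genes listed in all 5 expression tables of neonatal mouse heart sections. Of the 38, 10 are replication genes (Mcm2, Mcm3, Mcm4, Mcm5, Mcm6, Mcm7, Pcna, Rrm1, Rrm2 and Tyms), 26 are mitosis genes, and the other two are Hmgb2 and Stmn1, which many kinds of dividing cells express. The sections came from wild-type C57BL/6 hearts operated on at postnatal day 1. In myocardial infarction (MI) hearts the left anterior descending artery was ligated, sham hearts had a sham operation, and hearts were collected 3 or 7 days later. There was 1 section each of sham day 3, MI day 3 and sham day 7, and there were 2 of MI day 7 (replicates 1 and 2). Each was a transverse section cut 200 µm below the suture, with sham hearts cut at an equivalent level, so that the values describe a single plane of the ventricles. The MI day 7 sections are biologically independent replicates and each other group is a single sample, so the spread behind the p-values rests on few sections. RNA was counted with unique molecular identifiers (UMIs) on Visium arrays, whose spots each take up RNA from several neighbouring cells. In such data fewer cells of a type and less RNA per cell cannot be told apart.

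Cells about to divide first license their replication origins with the Mcm2 to Mcm7 helicase, load the sliding clamp Pcna and make deoxynucleotides with ribonucleotide reductase (Rrm1 with Rrm2) and thymidylate synthase (Tyms). Mitosis genes are switched on later, in G2 and M phase, through the CHR promoter element (cell cycle genes homology region) and CCAAT boxes, whereas many replication genes respond to E2F factors at the start of S phase. Mouse cardiomyocytes still divide at birth and leave the cell cycle during the postnatal week that follows. Many of them copy DNA in those days without dividing, becoming binucleate, so transcripts of these genes do not count divisions.

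Sections held 376 to 960 spots and 11396022 to 37492530 raw UMIs, with medians of 20842.5 to 53940 UMIs per spot. Levels are given as CPM, the table values of a spot scaled to a total of 1000000 over the shared genes and averaged over the spots of a section. Cardiomyocyte markers summed to between 23648 and 29761 CPM in every section and all 6 were detected, which fits the labelled tissue. MI day 7 replicate 1 stood apart, since mitochondrial genes took 24.7% of its table values against 13.8% to 15.8% in the other sections, and the comparisons of sections are given with and without it. Between 0 and 11 spots per section had under 1000 raw UMIs. The table of sham day 3 holds raw counts and the other 4 hold depth-corrected ones. With sham day 3 put through the same correction, the median difference between days given below was -0.76 for the replication and -0.77 for the mitosis members, as without it.

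Promoter sequences showed what the mitosis and the replication members share apart from their expression. A promoter (250 bases before to 50 after the start, RefSeq, GRCm38.p6) was matched for 32 members, 22 of the mitosis and 9 of the replication group with Hmgb2. The CHR (TTTGAA, on either strand) was present in 17 of 22 mitosis promoters and in 1 of 9 replication promoters, that of Mcm2, beside 16.8% of all 20595 promoters of this length and 11.7% of the 10570 whose genes are in all 5 tables. CCAAT boxes were present in 19 of 22 and 8 of 9, beside 38.2% of all promoters and 38.6% of those of genes in the tables. An E2F form (TTCCCGC or TTGGCGC, on either strand) was present in 5 of 9 replication and 4 of 22 mitosis promoters, beside 8.25% of all and 12.5% of those of genes in the tables. CHR and CCAAT together were present in 16 of 22 mitosis promoters, in 1 of 9 replication promoters in 6.67% of all and in 4.88% of those of genes in the tables. These matches are descriptions of letters in a window and carry no test. The 6 windows printed next run from 150 bases before to 30 after the start on the gene's own strand, and were chosen as mitosis members that hold CHR and CCAAT elements and replication members that hold E2F forms close to the start. Capitals mark the CHR (TTTGAA or its reverse complement TTCAAA), the CCAAT box (CCAAT or ATTGG) and the E2F forms with their reverse complements. Matches on opposite strands can overlap, as 2 E2F forms did in Mcm3, and a promoter was counted once for each element.
Ccnb2 (mitosis, chr9:70421525-70421704, minus strand): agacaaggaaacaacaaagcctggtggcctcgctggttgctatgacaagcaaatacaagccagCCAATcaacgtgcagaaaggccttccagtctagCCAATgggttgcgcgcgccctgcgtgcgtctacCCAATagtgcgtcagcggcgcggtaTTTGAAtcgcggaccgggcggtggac
Top2a (mitosis, chr11:99024160-99024339, minus strand): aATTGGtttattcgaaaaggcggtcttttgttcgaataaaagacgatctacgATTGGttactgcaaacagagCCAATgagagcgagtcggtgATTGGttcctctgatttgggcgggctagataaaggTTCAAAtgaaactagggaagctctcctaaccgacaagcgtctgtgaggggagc
Ube2c (mitosis, chr2:164769779-164769958, plus strand): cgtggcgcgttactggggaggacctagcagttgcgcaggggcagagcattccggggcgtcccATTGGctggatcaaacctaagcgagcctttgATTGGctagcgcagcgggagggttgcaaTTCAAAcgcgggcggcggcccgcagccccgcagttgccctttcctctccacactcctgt
Cdc20 (mitosis, chr4:118437314-118437493, minus strand): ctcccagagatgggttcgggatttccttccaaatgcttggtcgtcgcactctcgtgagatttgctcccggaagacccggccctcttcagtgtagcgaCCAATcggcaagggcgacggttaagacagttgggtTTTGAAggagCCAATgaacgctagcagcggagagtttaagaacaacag
Mcm6 (replication, chr1:128359676-128359855, minus strand): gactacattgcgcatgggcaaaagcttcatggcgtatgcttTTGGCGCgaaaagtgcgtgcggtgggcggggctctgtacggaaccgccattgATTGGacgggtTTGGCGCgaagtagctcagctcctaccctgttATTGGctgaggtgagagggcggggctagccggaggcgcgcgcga
Rrm1 (replication, chr7:102441545-102441724, plus strand): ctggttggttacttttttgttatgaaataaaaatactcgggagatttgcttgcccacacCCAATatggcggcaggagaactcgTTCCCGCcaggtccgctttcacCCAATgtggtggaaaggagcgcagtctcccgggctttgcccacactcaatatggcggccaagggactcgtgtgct
The 4 mitosis windows each held 1 CHR with 2 to 4 CCAAT boxes and no E2F form. The 2 replication windows held 2 CCAAT boxes each, with 2 E2F forms in Mcm6 and 1 in Rrm1, and no CHR.

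The replication members were summed first, as the machinery that copies DNA. Their sum was 782 CPM (sham) and 601 CPM (MI) at day 3, then 451 CPM (sham), 314 CPM and 433 CPM (MI) at day 7, a mean of 374 ± 84.1 CPM (SD, n = 2) for the MI pair. All 10 members were higher in both day 3 sections than in any day 7 section. The clamp gene Pcna was at 183 CPM (sham) and 139.6 CPM (MI) at day 3, then 122 CPM (sham), 84.4 CPM and 103 CPM (MI replicates 1 and 2) at day 7. For Rrm1, the large subunit of ribonucleotide reductase, the levels were 103 CPM (sham) and 74.9 CPM (MI) at day 3, then 60.8 CPM (sham), 44.6 CPM and 60.8 CPM (MI replicates 1 and 2) at day 7. Its partner Rrm2, whose protein is degraded outside S phase, was at 96 CPM (sham) and 72.4 CPM (MI) at day 3, then 50.7 CPM (sham), 29.6 CPM and 50.7 CPM (MI replicates 1 and 2) at day 7. In each of these 3 genes sham day 3 was highest, MI day 3 followed, and MI day 7 replicate 1 was lowest.

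Among the helicase subunits, Mcm6 was at 91.8 CPM (sham) and 66.1 CPM (MI) at day 3, then 49.7 CPM (sham), 33 CPM and 45.6 CPM (MI replicates 1 and 2) at day 7. Mcm7 was at 70.8 CPM (sham) and 56 CPM (MI) at day 3, then 32.9 CPM (sham), 30.3 CPM and 36.2 CPM (MI replicates 1 and 2) at day 7, and MI day 7 averaged 33.2 ± 4.17 CPM (SD, n = 2). Levels of Mcm2 were 66.7 CPM (sham) and 42.9 CPM (MI) at day 3, then 34.4 CPM (sham), 24.4 CPM and 37.6 CPM (MI replicates 1 and 2) at day 7. At day 7 the sham value lay between the MI replicates for both Mcm2 and Mcm7. Mcm3, Mcm4 and Mcm5 were at 41.5, 33.7 and 40.8 CPM after MI at day 3, each below its sham value of 45.8, 45.6 and 52.7 CPM that day. Tyms was the exception at day 3, with 25.5 CPM (sham) and 32.7 CPM (MI) at day 3, then 19 CPM (sham), 13.6 CPM and 19.3 CPM (MI replicates 1 and 2) at day 7. Raw counts behind these values in the sham day 3 section ran from 287 UMIs for Tyms (exact Poisson 95% interval 255 to 322, counting error only) to 2069 UMIs for Pcna (1981 to 2160).

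The mitosis members summed to 1087 CPM (sham) and 1123 CPM (MI) at day 3, then to 823 CPM (sham), 451 CPM and 726 CPM (MI) at day 7, a mean of 588 ± 194 CPM (SD, n = 2) for the MI pair. In 25 of the 26, both day 3 sections lay above every day 7 section. Cenpa, the histone variant that marks centromeres, was the member outside this count, with 108 CPM (sham) and 117 CPM (MI) at day 3, then 115 CPM (sham), 63.2 CPM and 99.9 CPM (MI replicates 1 and 2) at day 7. For Ube2c, the ubiquitin-conjugating enzyme of the anaphase-promoting complex, the levels were 117 CPM (sham) and 109 CPM (MI) at day 3, then 83.4 CPM (sham), 39.5 CPM and 71.1 CPM (MI replicates 1 and 2) at day 7. Cdk1, the kinase that drives entry into mitosis, was at 82.1 CPM (sham) and 81.6 CPM (MI) at day 3, then 63.2 CPM (sham), 33.7 CPM and 51.2 CPM (MI replicates 1 and 2) at day 7. Its partner cyclin Ccna2 was at 64.3 CPM (sham) and 61.1 CPM (MI) at day 3, then 43.3 CPM (sham), 24.3 CPM and 35.1 CPM (MI replicates 1 and 2) at day 7. At day 3 the sham and MI sections were closer to each other in these 4 genes than in the replication genes given above.

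Mki67, which coats mitotic chromosomes and is the usual marker of dividing cells, was at 66.1 CPM (sham) and 73.4 CPM (MI) at day 3, then 55.7 CPM (sham), 30.8 CPM and 47.6 CPM (MI replicates 1 and 2) at day 7. Top2a, which untangles sister DNA molecules, was at 68.3 CPM (sham) and 65.4 CPM (MI) at day 3, then 42 CPM (sham), 26.3 CPM and 41.8 CPM (MI replicates 1 and 2) at day 7. Birc5 (survivin), a subunit of the chromosomal passenger complex, was at 70.1 CPM (sham) and 76 CPM (MI) at day 3, then 52 CPM (sham), 27.7 CPM and 44.2 CPM (MI replicates 1 and 2) at day 7. The spindle midzone protein Prc1 was at 45.1 CPM (sham) and 43.6 CPM (MI) at day 3, then 35.8 CPM (sham), 18.8 CPM and 33.3 CPM (MI replicates 1 and 2) at day 7. All 4 were lowest in MI day 7 replicate 1 and next lowest in replicate 2. Cdc20, which activates the anaphase-promoting complex, was at 40.5 CPM (sham) and 40.4 CPM (MI) at day 3, then 31.2 CPM (sham), 17.7 CPM and 31.1 CPM (MI replicates 1 and 2) at day 7. The mitotic cyclin Ccnb1 was at 39 CPM (sham) and 48.6 CPM (MI) at day 3, then 29.9 CPM (sham), 14.4 CPM and 26 CPM (MI replicates 1 and 2) at day 7. For Tpx2, which helps build the spindle, the levels were 27.9 CPM (sham) and 28.4 CPM (MI) at day 3, then 19.2 CPM (sham), 10.7 CPM and 18.5 CPM (MI replicates 1 and 2) at day 7. Anillin (Anln), a scaffold of the cytokinetic ring, was at 29.1 CPM (sham) and 33.7 CPM (MI) at day 3, then 19.5 CPM (sham), 11.7 CPM and 19.8 CPM (MI replicates 1 and 2) at day 7, and Cenpe, a motor at kinetochores, at 11.6 CPM (sham) and 17.2 CPM (MI) at day 3, then 9.12 CPM (sham), 4.73 CPM and 8.69 CPM (MI replicates 1 and 2) at day 7. These last 5 followed the same order at day 7, with sham above or near replicate 2 and replicate 1 lowest, and Anln, Ccnb1 and Cenpe were higher after MI than after sham operation at day 3. The other mitosis members range from the kinases Aurka, Aurkb and Plk1 and the checkpoint proteins Bub1 and Bub1b to the motors Kif11, Kif20a and Kif23 and the cytokinesis proteins Racgap1 and Ect2. Their lowest section mean was that of Bub1 in MI day 7 replicate 1.

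The chromatin protein Hmgb2 was at 176 CPM (sham) and 175 CPM (MI) at day 3, then 132 CPM (sham), 80.3 CPM and 112 CPM (MI replicates 1 and 2) at day 7. Levels of Stmn1, which destabilises microtubules, were 207 CPM (sham) and 185 CPM (MI) at day 3, then 152 CPM (sham), 79.3 CPM and 156 CPM (MI replicates 1 and 2) at day 7. Both were higher at day 3 than at day 7 in every section. All 38 members were lower in MI day 7 replicate 1 than in replicate 2, against 75.3% of all genes tested. Over the 5 sections the members' means ranged from 4.55 CPM to 207 CPM, the highest being Stmn1 in sham day 3. Pseudogene copies of Ccnb1, Ccnb2, Pcna and Tyms are not rows of these tables and Kif11 overlaps another gene on its strand, so how reads of these members were split is uncertain.

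**Figure D1:**
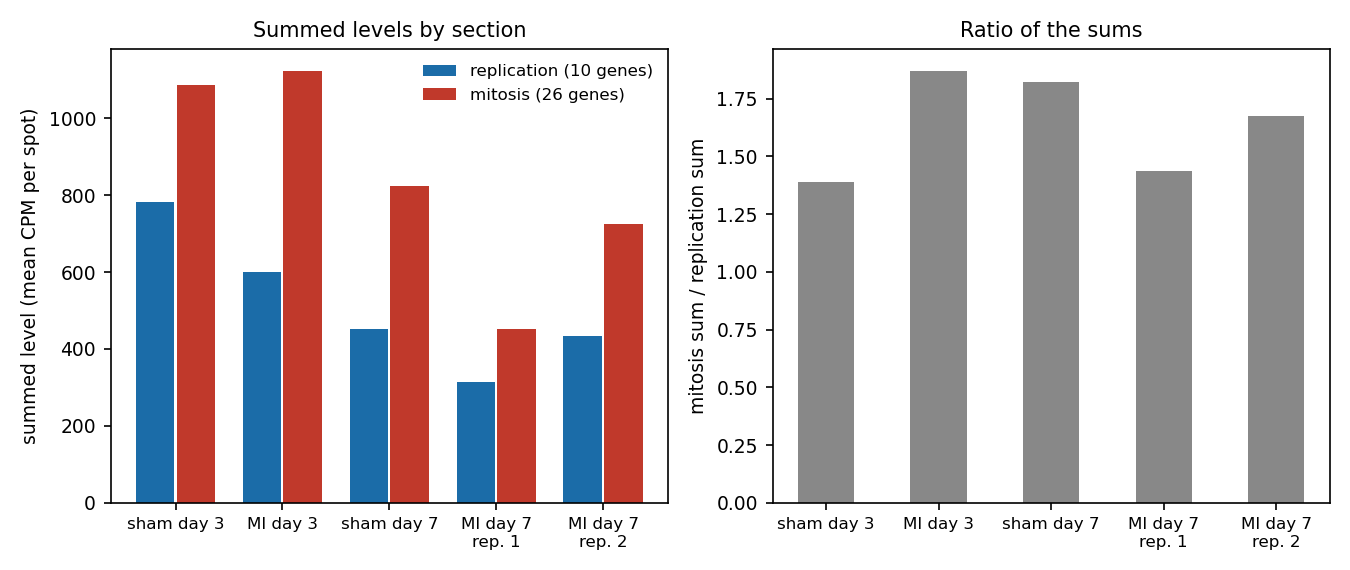
Left, bars from 0 of the summed level (mean CPM per spot) of the 10 replication and 26 mitosis members in each of the 5 sections; right, the ratio of the mitosis to the replication sum. Both sums are lowest in MI day 7 replicate 1 (314 and 451 CPM), and the ratio is lowest in sham day 3 (1.39) and highest in MI day 3 (1.87); 1 section per bar, with no error bar.

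The comparison of days asked how the members changed as the heart grew from day 3 to day 7. Values were fitted across all 12933 genes tested with limma on log2(CPM + 1), with operation as a covariate, so that a log2 difference is on that scale. Each of the 38 members passed the filter on low values, and each was lower at day 7, beside 10006 of the 12933 genes tested. The median log2 difference was -0.76 for the replication and -0.77 for the mitosis members, beside -0.18 for all genes tested. The helicase gene Mcm7 differed by -0.89 ± 0.14 (SE), Mcm3 by -0.91 ± 0.17 and Plk1, with the lowest value, by -1.05 ± 0.21. Cenpa differed least, by -0.27 ± 0.23. Non-overlapping day groups were found in 37 of the 38 members against 38.9% of all genes tested, and in 37 again without MI day 7 replicate 1, against 41.3%. Of 8 lists of cell type markers, 3 also had groups that did not overlap by day. The 5 mural markers summed to 336 and 310 CPM at day 3 and to 473, 469 and 406 CPM at day 7, the 6 cardiomyocyte markers to 26349 and 23648 CPM and then to 29761, 26814 and 27918 CPM, and the 4 endocardial markers to 78.3 and 100.2 CPM and then to 57.3, 50.6 and 74.7 CPM. All of these markers were detected in every section, and their part in the difference between days was not tested.

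No member passed the threshold after adjustment (limma, Benjamini-Hochberg over all genes tested, lowest adjusted p = 0.0572, for Mcm7), where 0.348% of genes passed as lower. At an unadjusted p under 0.05, 36 of 38 members were lower, beside 21.7% of all genes tested. The difference depended on the sections. Without sham day 3, or without sham day 7, it rests on the MI hearts, with medians of -0.73 for the replication and -1.001 for the mitosis members. Without MI day 3, which leaves sham day 3 alone at that day, the mitosis median was -0.46 while that of the replication members was -0.83. Without MI day 7 replicate 1, 3 members passed (Mcm3, Plk1 and Top2a), beside 0.667% of all genes as lower, and the medians were -0.63 and -0.56. With mitochondrial and haemoglobin genes left out of the totals, 5 passed (Cenpf, Mcm3, Mcm6, Mcm7 and Pcna), beside 0.982% of all genes as lower.

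**Figure D2:**
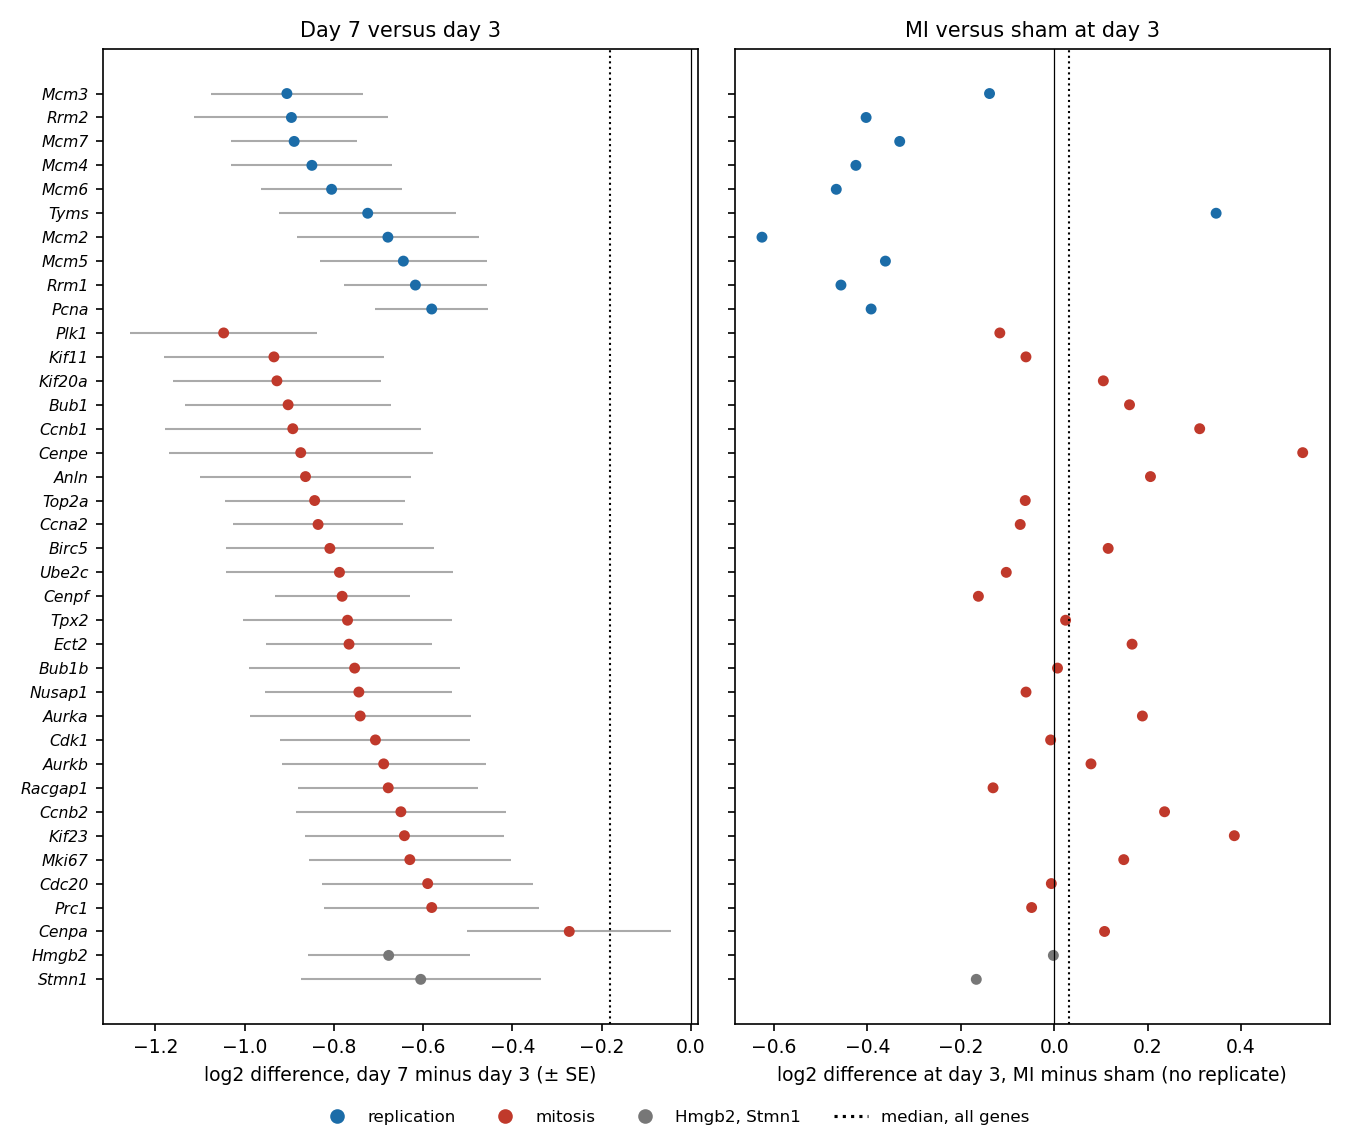
Each point is 1 of the 38 members, coloured by role. Left, the log2 difference of day 7 minus day 3 with its SE from the limma fit over 5 sections; right, the log2 difference of the MI minus the sham section at day 3, 1 section each; dotted lines are the medians of all genes tested (-0.18 and 0.03). At left all members lie below 0; at right the replication members other than Tyms lie below 0 and the mitosis members lie on both sides.

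Infarction was compared with sham at each day. At day 3, with 1 section per group and no test, 9 of 10 replication members were lower in the MI section, with a median log2 difference of -0.40, while 15 of 26 mitosis members were higher and 11 lower, with a median of 0.05, beside 0.03 for all genes. Of all 12933 genes, 7069 were higher and 5864 lower. By at least 0.32 on the log2 scale, 8 replication members were lower and 1, Tyms, was higher. Of the mitosis members 0 were lower and 2, Cenpe and Kif23, were higher by that much. Among all genes 9.82% were lower and 18.5% higher by as much. The mitosis to replication ratio was therefore 1.39 in sham and 1.87 in MI at day 3. At day 7 it was 1.82 in sham and 1.56 ± 0.17 (SD, n = 2) in MI, so the order of sham and MI was the opposite one. Immune markers summed to 104 CPM in sham day 3 and 962 CPM in MI day 3, and all 8 were detected in every section. The 6 erythroid markers, all detected, summed to 4412 and 11386 CPM and the 6 fibroblast markers to 2642 and 3815 CPM in the same sections. The part of these markers in the differences at day 3 was not tested.

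MI was next compared with sham across both days. The median log2 difference was -0.35 for the replication and -0.24 for the mitosis members (-0.01 for all genes), and limma passed 0 of the 38, beside 0.0% of all genes passing as lower. At an unadjusted p under 0.05 there were 2 lower members, Pcna (-0.39 ± 0.13, SE) and Mcm6 (-0.40 ± 0.16), beside 2.75% of all genes. Without MI day 7 replicate 1 the medians were -0.21 and -0.04, and without sham day 7, which leaves the day 3 contrast, they were -0.40 and 0.05.

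At day 7 alone the median was -0.28 for the replication and -0.48 for the mitosis members (-0.04 for all genes). Again 0 members passed in limma, where 0.0464% of all genes passed as lower. At an unadjusted p under 0.05, 10 mitosis members were lower, among them the kinase gene Aurkb (-0.64 ± 0.24, SE) and the spindle motor Kif11 (-0.65 ± 0.26), beside 1.69% of all genes. This spread comes from the 2 MI sections alone. Leaving out replicate 1, which leaves no test, gave medians of 0.00 and -0.20, and leaving out replicate 2 gave -0.50 and -0.82, so that replicate 1 decided much of the difference.

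The change of MI minus sham from day 3 to day 7 was tested itself. Its median was 0.07 for the replication and -0.56 for the mitosis members, beside -0.09 for all genes. All 26 mitosis members and 3 of 10 replication members had values below 0, beside 8051 of all 12933 genes. Without MI day 7 replicate 1 the medians were 0.38 and -0.23, and without replicate 2 they were -0.12 and -0.88, both with no test, so that the value of the replication members changed sign with the replicate used. limma passed 0 members (0.363% of all genes passed as lower), and 3 were lower at an unadjusted p under 0.05, the cytokinesis motor Kif23 (-0.87 ± 0.35, SE), the kinetochore motor Cenpe (-0.97 ± 0.42) and the mitotic cyclin Ccnb1 (-0.91 ± 0.42), beside 4.12% of all genes. The difference between the groups of members was not tested.

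Where in the sections the transcripts lay was described by Moran's I, which is near 0 when neighbouring spots are unrelated and approaches 1 when they are alike. The mitosis sum had an I of 0.499 in MI day 3, 0.279 and 0.180 in MI day 7 replicates 1 and 2, 0.158 in sham day 3 and 0.0265 in sham day 7. For the replication sum the values were 0.249, 0.255, 0.158, 0.107 and 0.0679 in the same order. On the map of the sums, spots with a high mitosis sum lay side by side in the interior of the MI day 3 section and were scattered in sham day 7. The MI day 7 replicates differed by more than replicate 2 differed from sham day 3, so these 2 sections were not ranked.

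**Figure D3:**
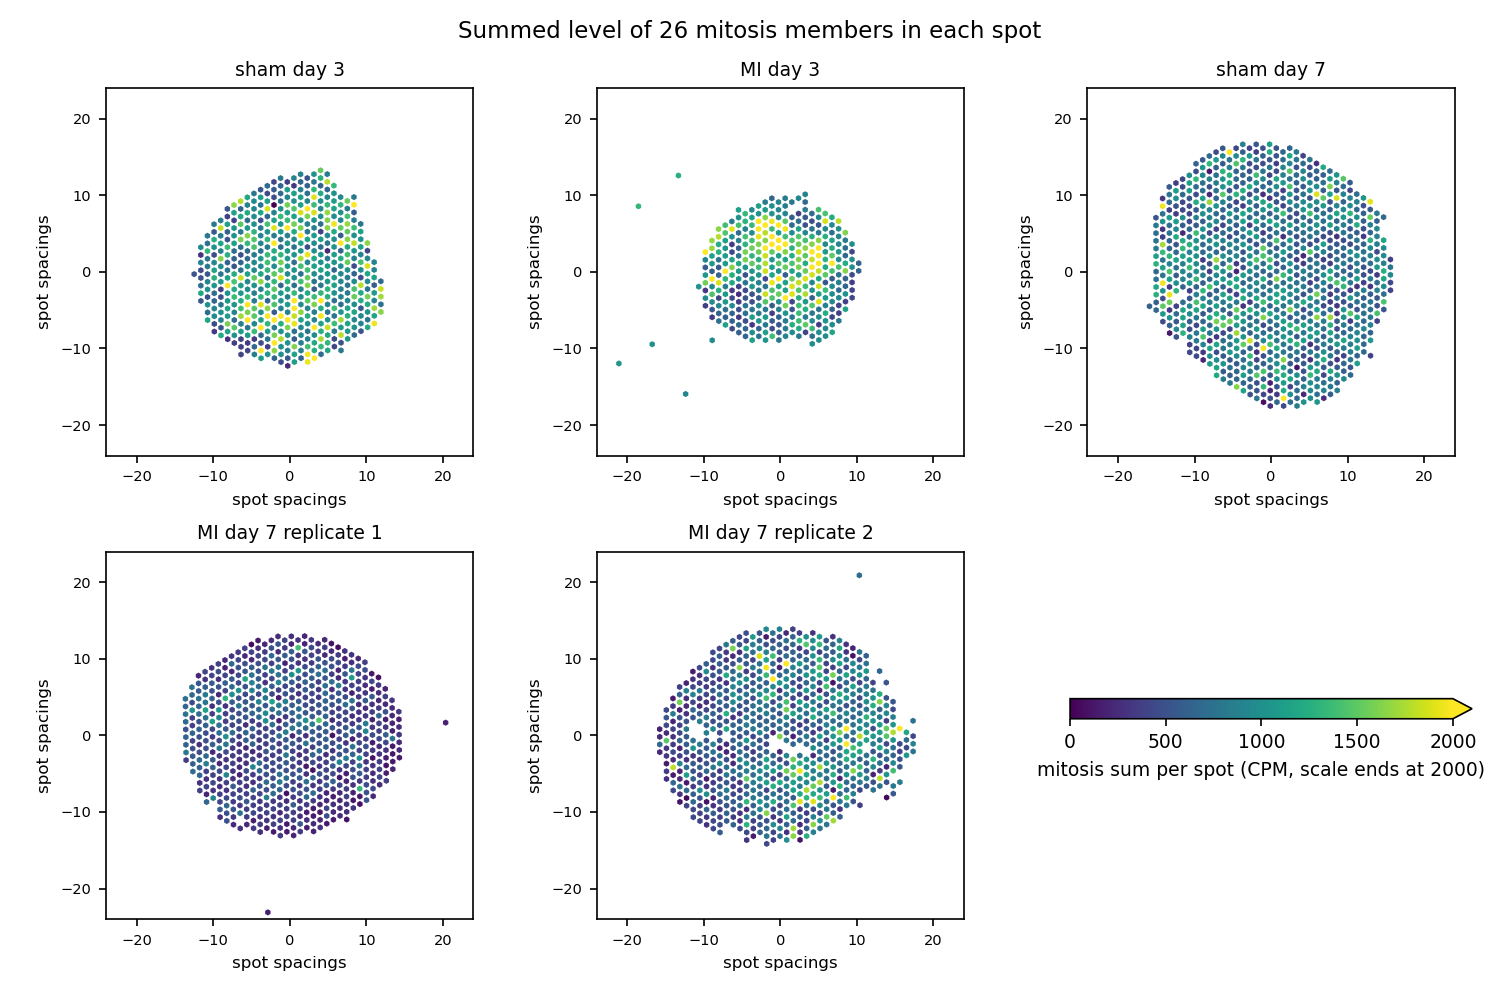
Maps of the 5 sections to one scale, each point a spot at its place (axes in units of the spacing between spots), coloured by the summed level of the 26 mitosis members (CPM; colours end at 2000). High spots lie together in the interior of MI day 3 and are scattered in sham day 7; a few points lie away from the tissue outline, and 9 more lie beyond the axes.

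Every replication member, and in 4 of the 5 sections every mitosis member, was less clustered than its sum. In sham day 7, 3 mitosis members (Birc5, Kif23 and Top2a, with an I of 0.0388, 0.0383 and 0.0298) were above theirs. Over the 38 members the median I was 0.105 in MI day 3, beside 0.0277 for all genes in the same range of mean CPM, and 0.00606 in sham day 7, beside 0.00616. It was 0.0195 in sham day 3, and 0.0490 and 0.0230 in MI day 7, beside 0.00475, 0.0150 and 0.0152. In MI day 3 the highest were Top2a (0.245), Ube2c (0.230), Stmn1 (0.230), Rrm2 (0.210) and Cenpa (0.209), and the lowest was Mcm4 (-0.00688). The depth of the sections moved in part with this order, with median raw UMIs per spot of 34837.5 in MI day 3 and 53940 in MI day 7 replicate 1 against 20842.5, 22934 and 20904 in sham day 3, sham day 7 and MI day 7 replicate 2; its part was not tested. Leaving out the spots under 1000 raw UMIs, which included 9 of the 10 spots of MI day 3 without a neighbour, gave 0.488 for the mitosis sum there.

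**Figure D4:**
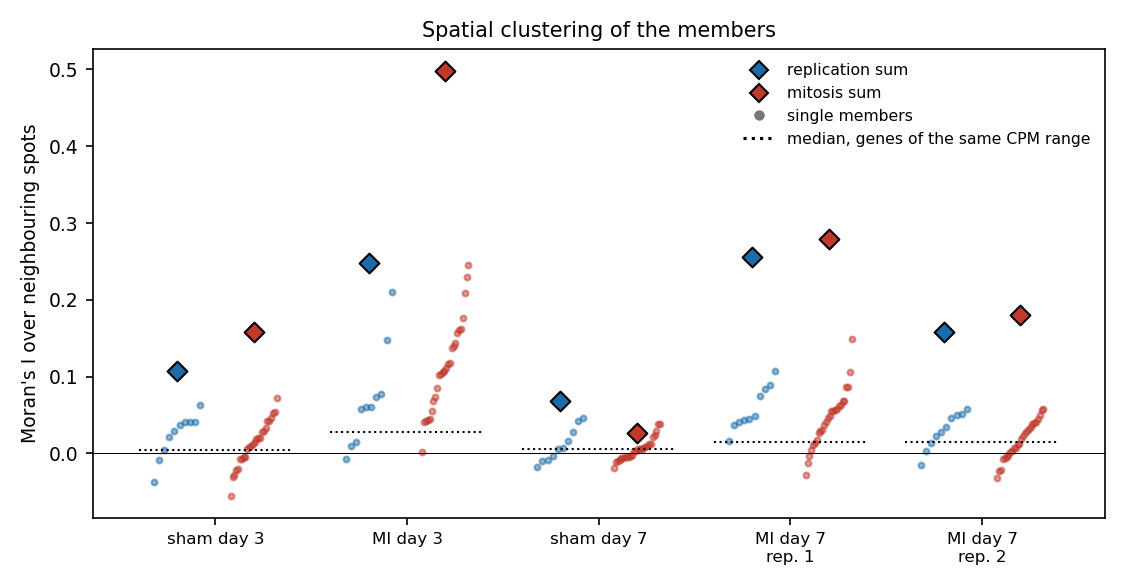
Moran's I over neighbouring spots by section. Diamonds are the replication and mitosis sums, small points single members, and dotted lines the median of all genes in the members' range of CPM. The mitosis diamond is highest in MI day 3 (0.499) and lowest in sham day 7 (0.0265); in the latter single members lie around the dotted line.

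Across the spots of a section, the replication and mitosis sums had a Spearman's rho of 0.48 in MI day 3, 0.43 and 0.35 in MI day 7, and 0.22 and 0.23 in sham day 3 and day 7 (376 to 960 spots, which share a library and its depth). Pairs of mitosis members had a median rho of 0.17 in MI day 3 and 0.04 to 0.10 in the other sections, and pairs of a replication with a mitosis member 0.10 and 0.02 to 0.05. Near the edge of the tissue the mitosis sum was lower, at 0.71 to 0.94 times its level in interior spots over the 5 sections, and the replication sum was at 0.74 to 0.93 times. The mitosis sum was lower where the mitochondrial share of a spot was higher, with rho between -0.45 and -0.21 in the 5 sections.

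Spots were next grouped by the highest of 11 cell type scores that the authors deposited, among them 5 cardiomyocyte states, CM1 to CM5, defined in an earlier study of single nuclei. CM1 is the most abundant, CM4 is described as an embryonic-like state that cycles in the injured neonatal heart, and CM5 as one induced by injury. CM2 is described as a rare state that also has high levels of cell-cycle genes. Each class was compared with the CM1-dominant spots of its own section. The scores come from the same expression values as the members, so these comparisons describe where the transcripts lie and are not independent of them. Classes with at least 10 spots in at least 3 sections were fitted with limma over 13710 genes, with section as a block, so that classes of one section share a heart. CM2 had the highest score in 3, 1, 9, 2 and 0 spots of sham day 3, MI day 3, sham day 7 and MI day 7 replicates 1 and 2, and was not fitted. Across all spots the mitosis sum had a rho with the CM2 score of 0.17, 0.03, -0.08, -0.003 and 0.19 in that order. Of the classes fitted, CM5 had the highest median log2 difference over the 38 members, 0.72, and endothelial spots the next, 0.29. In CM5-dominant spots the mitosis sum was 2.08, 1.64, 2.26 and 1.48 times that of CM1-dominant spots in MI day 3, sham day 7 and MI day 7 replicates 1 and 2, over 15, 19, 18 and 13 spots. The replication sum of CM5-dominant spots was 1.42, 1.54, 1.57 and 1.19 times as high.

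In the CM5 class 10 members passed as higher (adjusted p under 0.05), beside 0.109% of all genes, or 10 of the 15 genes that passed as higher. Of these, 9 were mitosis genes and Rrm1 was the only replication gene. Cenpa, the centromeric histone, was at 235, 191, 94.9 and 139.8 CPM in CM5-dominant spots and at 110.5, 109, 58.7 and 96.8 CPM in CM1-dominant spots of the same sections (log2 difference 0.74 ± 0.12, SE, limma adjusted p = 0.00743). Cdc20 was at 72.7, 59.2, 50.2 and 54.5 CPM against 39.4, 27.7, 15.0 and 31.0 CPM, the largest change of the 10 (1.07 ± 0.19). Rrm1 differed by 0.65 ± 0.13, and Ccna2, Cdk1, Prc1, Tpx2, Top2a, Ube2c and Birc5 by 0.80 to 1.02. In each of the 4 sections the CM5-dominant spots were the higher ones for each of the 10. The 10 were called from these same sections, so this order follows in part from the call.

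Over all 38 members the CM5 difference was above 0, beside 6499 of the 13710 genes fitted. Medians were 0.43 for replication and 0.79 for mitosis members, beside -0.02 for all genes. At an unadjusted p under 0.05, 28 were higher, beside 3.59% of all genes. The classes are small, and the calls rest on them: without MI day 7 replicate 1 limma passed none (23 members were past an unadjusted p of 0.05), without MI day 3 it passed 1 (Cdc20), without sham day 7 it passed 2, without sham day 3 it passed 5 and without MI day 7 replicate 2 it passed 14. Over all genes these fits passed 0, 1, 2, 6 and 25 as higher in the same order. The mitosis median stayed between 0.68 and 0.88 in these fits. With interior spots alone 8 members passed, beside 0.0948% of all genes as higher, and with mitochondrial and haemoglobin genes left out 10 did, beside 0.0949%.

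Other measures moved with the CM5 class. In MI day 3, sham day 7 and MI day 7 replicates 1 and 2, mitochondrial genes took 13.7%, 13.9%, 24.7% and 14.5% of values in CM5-dominant spots against 17.0%, 16.2%, 28.2% and 17.3% in CM1-dominant spots. Erythroid markers were at 0.479 to 0.819 times the CM1 level over these sections, and fibroblast markers at 1.12 to 1.27 times. At the tissue edge lay 0.0%, 10.5%, 11.1% and 0.0% of CM5-dominant spots, against 29.4%, 12.8%, 22.8% and 19.96% of CM1-dominant spots. The part of the marker lists was not tested.

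CM4-dominant spots numbered 40 to 86 per section. Against CM1-dominant spots of the same section, their mitosis sum was 0.943 and 0.973 times as high in sham day 3 and day 7, and 1.249, 1.61 and 1.56 times in MI day 3 and MI day 7 replicates 1 and 2. The replication sum was 0.929 and 0.987 times in the sham sections and 1.06, 1.41 and 1.31 times in the MI sections. Sham and MI did not overlap in either. Over all sections together limma passed 0 members in the CM4 class, where 0.0292% of genes passed as higher, and 4 (Cdk1, Ube2c, Top2a and Mki67) were higher at an unadjusted p under 0.05, beside 2.97% of all genes.

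The difference between CM4 and CM1 was then compared between MI and sham, a test that was added after the values had been seen. It had a median of 0.37 for replication and 0.64 for mitosis members, and 4 members passed as higher, beside 1.58% of all genes (19 members at an unadjusted p under 0.05, beside 19.7%). The median of all genes was itself 0.28. Anln, the cytokinesis scaffold anillin, was at 17.1 CPM in CM4 against 30.9 in CM1-dominant spots in sham day 3 and 11.1 against 19.5 in sham day 7, but at 39.3 against 31.0 in MI day 3 and at 20.6 against 8.21 and 36.9 against 15.9 in MI day 7 (1.70 ± 0.28, SE, limma adjusted p = 0.00251). Ccnb1, the mitotic cyclin, differed by 1.10 ± 0.24 (limma adjusted p = 0.0228), Ccna2 by 0.87 ± 0.18 and Birc5 by 0.74 ± 0.18. For each of the 4, CM4-dominant spots were below CM1-dominant spots in both sham sections and above them in all 3 MI sections. The 4 were called by this contrast, so this order follows in part from the call. Without sham day 3 or without MI day 7 replicate 2 limma passed none, with 16 and 17 members past an unadjusted p of 0.05, while 0.258% and 0.168% of all genes passed as higher.

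Where CM4-dominant spots lay, and what else they held, moved with this contrast. In sham sections 56.1% and 43.1% of them were at the tissue edge, against 12.5%, 1.32% and 15.1% in MI sections. Mitochondrial genes took 22.8% and 20.5% of values in CM4 against 16.3% and 16.2% in CM1-dominant spots of the sham sections, and 9.70%, 20.8% and 14.1% against 17.0%, 28.2% and 17.3% in the MI sections. Median raw UMIs per spot were 18862 and 23629.5 in CM4 against 21806 and 23269 in CM1-dominant spots of sham day 3 and day 7, and 41057, 57265.5 and 25189.5 against 33890, 54058 and 21130 in MI day 3 and MI day 7 replicates 1 and 2, so that the depth of CM4 relative to CM1 did not overlap between operations and was higher after MI. Across all spots the mitosis sum had a rho with raw UMIs of -0.016 and 0.17 in sham day 3 and day 7, and of 0.050, 0.27 and 0.30 in the MI sections; the part of depth was not tested. With interior spots alone the mitosis ratio was 1.07 and 1.04 in sham and 1.196, 1.497 and 1.553 in MI, and 0 members passed (6 at an unadjusted p under 0.05), where 0.015% of all genes passed as higher. With mitochondrial and haemoglobin genes left out, the ratio was 1.03 and 1.04 in sham and 1.151, 1.466 and 1.502 in MI, and Anln alone passed of the members, beside 0.134% of all genes. So the sham values of the mitosis sum lay below or above 1 depending on these choices, while its MI values were higher than its sham ones in each. With those genes left out the replication ratio overlapped between operations, at 1.02 and 1.07 after sham operation against 0.976, 1.28 and 1.28 after MI. Fibroblast markers, all 6 detected, were 1.39 to 1.54 times the CM1 level in CM4-dominant spots of sham sections and 1.53 to 2.59 times in those of MI sections, and the 8 immune markers 1.30 to 1.73 and 1.30 to 3.58 times. Erythroid markers were 2.24 and 3.12 times the CM1 level in sham day 3 and day 7, and 0.592, 1.118 and 1.088 times in MI day 3 and MI day 7 replicates 1 and 2, so that sham and MI did not overlap. The part of these lists was not tested.

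**Figure D5:**
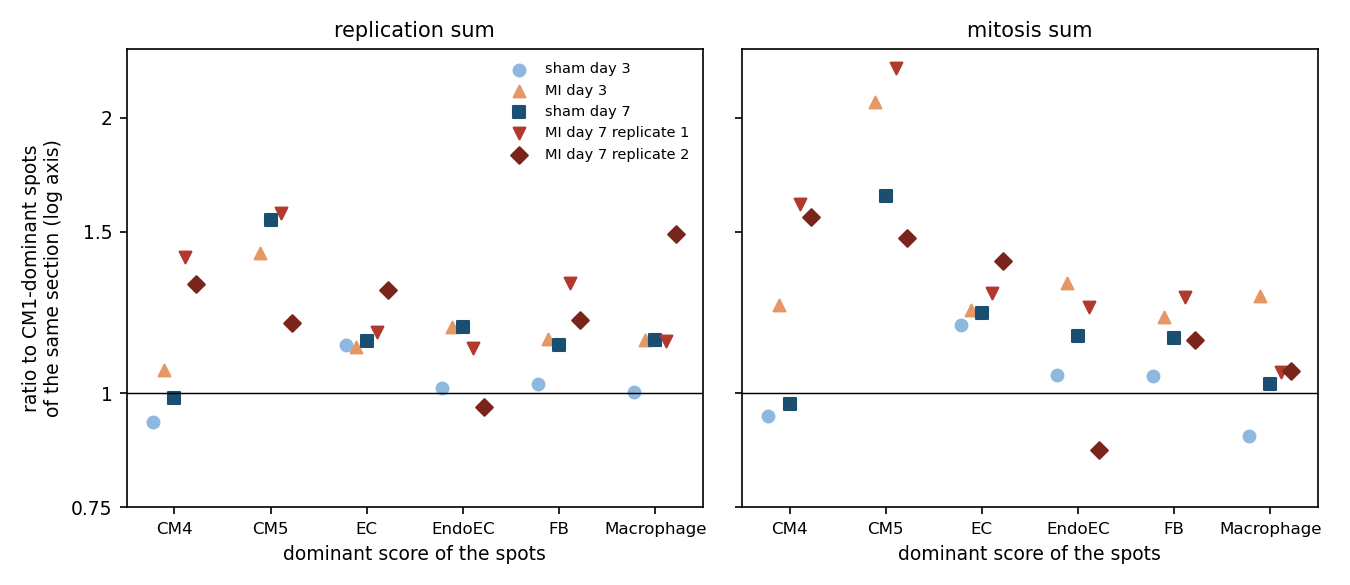
Ratio of the replication sum (left) and the mitosis sum (right) in spots dominated by a score to that in CM1-dominant spots of the same section, on a log axis; each symbol is a section with at least 10 such spots. CM5 lies above 1 wherever it has a value, and CM4 lies below 1 in both sham and above 1 in the 3 MI sections.

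In the other classes the median over the 38 members was 0.29 for endothelial (EC), 0.12 for endocardial (EndoEC), 0.19 for fibroblast (FB) and 0.13 for macrophage-dominant spots. limma passed 0 members in the EC, EndoEC and FB classes, where 0.0%, 2.34% and 6.31% of all genes passed as higher and 8, 1 and 7 members were higher at an unadjusted p under 0.05, beside 3.5%, 9.13% and 16.1% of all genes. In macrophage-dominant spots 3 members passed as higher, Tyms (0.69 ± 0.20, SE, limma adjusted p = 0.0231), Pcna (0.32 ± 0.10) and Cenpe (0.81 ± 0.26), beside 6.83% of all genes, and 5 were higher at an unadjusted p under 0.05, beside 14.6%. None of the 3 passed without MI day 3, without MI day 7 replicate 1 or replicate 2, or with interior spots alone, where 1.31%, 6.41%, 2.37% and 2.46% of all genes passed as higher. Among the tenth of spots with the highest mitosis sum, CM5-dominant spots made up 5.45% in sham day 3, 21.1% in MI day 3, 7.29% in sham day 7, and in MI day 7 17.1% in replicate 1 and 4 of 80 spots in replicate 2, where they were 0.735%, 3.99%, 1.98%, 2.60% and 1.64% of all spots. CM4-dominant spots made up 12.7% in sham day 3, 13.2% in MI day 3, 4.17% in sham day 7, and 32.9% and 28.7% in MI day 7, where they were 10.5%, 10.6%, 6.04%, 10.97% and 10.87% of all spots, with sham day 3 close to MI day 3.

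Other genes of the same pathways were counted from lists of 44 replication genes (among them the GINS and origin recognition complexes) and 59 mitosis genes (among them the Ndc80 kinetochore complex). All genes of both lists were lower at day 7, beside 10006 of the 12933 genes tested. Their medians were -0.54 and -0.63, beside -0.18 for all genes, and 0 passed (33 and 47 as lower at an unadjusted p under 0.05, beside 21.7% of all genes). At day 3 the medians of MI minus sham were -0.30 and -0.07, beside 0.03 for all genes, so that the replication list was again further below 0 than the mitosis list. In CM5-dominant spots 2 of these mitosis genes passed as higher, beside 0.109% of all genes, Hmmr, a spindle protein, at 1.38 ± 0.26 (SE) and Cks2, a Cdk subunit, at 0.69 ± 0.15. Neither passed without MI day 3, without sham day 7 or without MI day 7 replicate 1, where 0.00731%, 0.0146% and 0% of all genes passed as higher. In macrophage-dominant spots Gins4 passed as higher (0.74 ± 0.22, beside 6.83% of all genes) and Cenpk (-1.09 ± 0.36), Cdc6 (-1.06 ± 0.34) and Ung as lower, beside 2.74% of all genes. In the contrast of CM4 between MI and sham 4 of these mitosis genes passed as higher, beside 1.58% of all genes, among them the separase Espl1 (1.66 ± 0.40) and the passenger proteins Incenp (1.49 ± 0.29) and Cdca8 (1.08 ± 0.22).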

How the data were processed

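Tissue from the 5 sections was sequenced on Visium arrays and aligned by the authors with Space Ranger to the GRCm38 genome. The deposited sham day 3 table holds raw UMI counts per gene and spot. The other 4 deposited tables hold values that the authors had corrected with sctransform towards a common depth per section, whole numbers treated here as a score and not as counts, since their spot totals equal the deposited corrected totals in every spot. The spot files give raw UMI counts, spot positions in pixels, and 11 cell type scores that the authors transferred from an earlier single-nucleus reference, each a fraction of 1. Because the tables mix raw and corrected values, no count model was run.

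Values were scaled to CPM in each spot over the 13711 genes in all 5 tables and averaged per section or per score class. Genes with at least 1 CPM in at least 2 columns were fitted on log2(CPM + 1) with limma 3.58.1 (R 4.3.3) with a mean-variance trend, and Benjamini-Hochberg adjusted p-values under 0.05 were called. Fits used operation and day (2 residual degrees of freedom), 4 group means (1 residual degree of freedom), or section and class. Moran's I and the limma fit of day 7 against day 3 were tested on simulated data, the latter with less spread than the real values. The other limma fits were not simulated. Moran's I linked spots within 1.25 times the median spacing (Python 3.11.15, SciPy 1.17.1), and an interior spot had 6 neighbours. No doublet caller was run, as spots hold several cells. Motifs were searched in RefSeq promoter sequences (GRCm38.p6).

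The members and gene lists were chosen with earlier results of these data known. Values in every section were given for the 6 replication and 8 mitosis members with the highest mean CPM for Hmgb2 and Stmn1, and for members called in a comparison. Of the other pathway genes, counts were given, with the 3 largest changes called in a comparison by name. The result of 1 pathway gene is not reported here. Alternatives were other scalings, pseudocounts, filters, class rules and neighbourhoods and leaving out each section. Leaving out spots under 1000 raw UMIs, edge spots, or, for classes and maps, mitochondrial and haemoglobin genes (17 genes), and the contrast of CM4 between operations, were chosen after seeing the data. The Poisson interval covers counting error only.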

Additional observations from a re-analysis of the deposited data

Results flagged for a closer look

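The level in CM4-dominant relative to CM1-dominant spots was lower in sham than in MI sections. For the mitosis sum the ratio was 0.9435 in sham day 3 and 0.9726 in sham day 7, and 1.249 in MI day 3, 1.608 in MI day 7 replicate 1 and 1.557 in replicate 2. For the replication sum it was 0.9288 (day 3) and 0.9872 (day 7) after sham operation, against 1.061 (day 3), 1.41 and 1.314 (day 7, replicates 1 and 2) after MI. The difference between sham and MI in these sums was not tested. With mitochondrial and haemoglobin genes left out, both sham ratios of the mitosis sum were above 1, and the replication ratios of sham and MI overlapped. With interior spots alone the sham ratios of the mitosis sum were also above 1, at 1.07 (day 3) and 1.04 (day 7).

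For single members the difference between operations was tested with limma. The test was added after these values had been seen, so its p-values are not independent of them. On the log2 scale the difference was 1.70 for Anln (adjusted p = 0.00251), 1.10 for Ccnb1 (adjusted p = 0.0228), 0.87 for Ccna2 (adjusted p = 0.0202) and 0.74 for Birc5 (adjusted p = 0.0443). The median of all genes was itself 0.28, with 10566 of 13285 above 0, and 1.58% passed as higher. In each of the 4, both sham sections were below 0 and all 3 MI sections above 0, which follows in part from the call. None of the 4 passed with interior spots alone or without MI day 7 replicate 2, and Anln alone passed with mitochondrial and haemoglobin genes left out. No group held enough sections for a search for single outlying sections.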

How the results depend on the processing

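No paired analysis was possible because the groups compared share fewer than 2 replicate numbers. Apart from left-out sections, 290 of the values that answer a comparison moved by less than their limit and 10 by more. With mitochondrial and haemoglobin genes left out, 5 members passed for day 7 against day 3 (0.982% of all genes as lower). There was 1 for macrophage-dominant spots (5.09% of all genes as higher) and 1 for CM4 between operations (0.134%). With interior spots alone, 0 passed for macrophage-dominant spots (2.46% of all genes as higher) and 0 for CM4 between operations (0.015%). With at least 20 spots 1 member passed for macrophages (4.38% of all genes as higher), and with a highest score of at least 0.5, 0 passed for macrophages (3.06%) and 1 for fibroblast spots (9.3%); CM5 could not be fitted under either. Moran's I of the replication sum in sham day 3 was 0.183 for values as deposited, 0.063 with mitochondrial and haemoglobin genes left out and 0.065 on the log2 scale, where that of the mitosis sum in sham day 7 was 0.0529, and that of the mitosis sum in MI day 3 was 0.401 over the second ring of spots. Leaving out a section gave 0 to 24 members for day 7 against day 3, 0 to 14 for CM5, 0 to 2 for macrophages and 0 to 4 for CM4 between operations. The log2 mitosis to replication ratio ran from -0.23 to 0.43 for MI minus sham and from -0.27 to 0.39 for day 7 minus day 3. For Cenpa the log2 difference of day 7 minus day 3 ran from -0.55 to 0.093, the latter without MI day 3. Where no cause is given above, the cause was not tested. Depth limits single members, which had 132 to 2351 raw UMIs over the 544 spots of sham day 3. Median-of-ratios scaling moved the median of all genes for day 7 minus day 3 from -0.18 to -0.01, and those of the replication and mitosis members to -0.58 and -0.59.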
